A study of Homo sapiens with 6 samples.

Results

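The genes described here encode the proteins of the cytosolic ribosome, in U251 cells with and without knockdown of TRAF2. They were chosen by name alone: RPS or RPL followed by a number and, where present, one of the letters A, X or L, together with RPSA, RPLP0, RPLP1 and RPLP2, with the RPS6 kinases left out. Of 23002 genes in the deposited table, 82 met this rule, 32 of the small subunit and 50 of the large subunit. RPL3L and RPL10L were not analysed here. U251 is an established human glioblastoma line. The control group (sh-NC, 3 samples) expressed a non-targeting short hairpin RNA, and the knockdown group (sh-TRAF2, 3 samples) expressed a short hairpin RNA (shRNA) against TRAF2, an adaptor that couples tumor necrosis factor receptors to NF-κB and JNK signaling. Both groups were stable lines that carried an shRNA vector and were selected with puromycin, and no other genotype or treatment is given for them. Which of the study's TRAF2 shRNAs was sequenced, and whether each line was a clone or a pool, is not given in the sources used here. The labels call the samples of a group replicates without saying whether they were separate cultures, so p-values measure the spread between these samples, which may be technical.

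A ribosome reads messenger RNA with its small subunit and joins amino acids with its large subunit. Each subunit holds ribosomal RNA and 1 copy of most of its proteins, so the proteins are needed in nearly equal numbers, and their messenger RNAs are among the most abundant in dividing cells. Many of these transcripts begin with a C and a run of pyrimidines, the 5′ terminal oligopyrimidine (TOP) element, through which mTOR and LARP1 control their translation. Surplus free RPL5 and RPL11 bind MDM2, which ties ribosome assembly to p53.

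Expression was deposited as FPKM, a read level corrected for gene length and library size. The reads on listed genes, recovered from the steps between FPKM values, numbered 35470561 to 37016575 in sh-NC and 34177502 to 34944071 in sh-TRAF2, so each sh-TRAF2 library was somewhat shallower than each sh-NC library. The FPKM of a sample summed to 349408 to 350440 in sh-NC and to 352745 to 353563 in sh-TRAF2. The part of these differences in the results was not tested beyond rescaling every sample to a common total, given beside the counts below. No pair of replicates was alike within counting error, the chi-square being 7.64 to 15.6 per ribosomal protein gene. Of the 9 markers of the line in the table, VIM averaged 1412 FPKM, TNC 194.2, CD44 184.1 and SOX2 26.57, while GFAP averaged 0.8244 and S100B 0.0038, so the last 2, which mark astrocytes, were nearly absent. The immune, endothelial and oligodendrocyte markers stayed under 1 FPKM in every sample except CD68 and KDR. The 6 neuronal markers summed to 25.4 to 28.7 FPKM in sh-NC and 15.7 to 16.9 in sh-TRAF2, most of it SYT1, and 4 of the 6 were under 1 FPKM in every sample. The part of this fall in the results was not tested. TRAF2 itself was at 15.1, 18.4 and 15.3 FPKM in sh-NC and at 3.26, 3.22 and 3.33 in sh-TRAF2, and so fell by 79.9% (limma adjusted p = 1.16e-06).

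Ribosomal protein transcripts were, as a group, slightly more abundant after TRAF2 knockdown, and a few went the other way by more. Of the 80 genes tested, 45 were higher (56.2%) and 7 lower (8.75%) in sh-TRAF2, and 28 did not pass the test. Among all 11870 genes tested, 44.6% passed in either direction, 23.7% being higher and 20.9% lower. The median log2 fold change of the 80 genes was 0.12, with a middle range from 0.04 to 0.2, against a median of 0.02 over all tested genes. The rises were small. The 45 genes called higher had a median log2 fold change of 0.18, a fold of 1.13, and 10 of them exceeded 0.3. The falls were fewer and on the whole larger, led by RPS4X, RPL15, RPL26 and RPS27L, all below -0.3. In bulk RNA, a change in the cells' make-up and a change in RNA per cell cannot be told apart.

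Calls rest on limma applied to log2(FPKM + 0.1) with Benjamini-Hochberg adjustment over the 11870 genes whose mean FPKM reached 0.5, at an adjusted p under 0.05. Fold changes are differences on that scale and come out too small for low genes. With the further threshold the study used, an absolute log2 fold change above 1, 1.72% of all tested genes (0.986% higher, 0.733% lower) and 0 of the 80 passed. Samples of the groups did not overlap for 53 genes in the upward and 8 in the downward direction, where 29.0% and 26.5% of all tested genes were so separated (55.5% in either direction), and of the 52 called genes all but RPS27 were separated. Rescaling to a common total gave 42 higher and 8 lower. Quantile normalization gave 35 higher and 9 lower, with a median log2 fold change of 0.07, so the share of calls that were upward went from 86.5% to 79.5%.

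**Figure D1:**
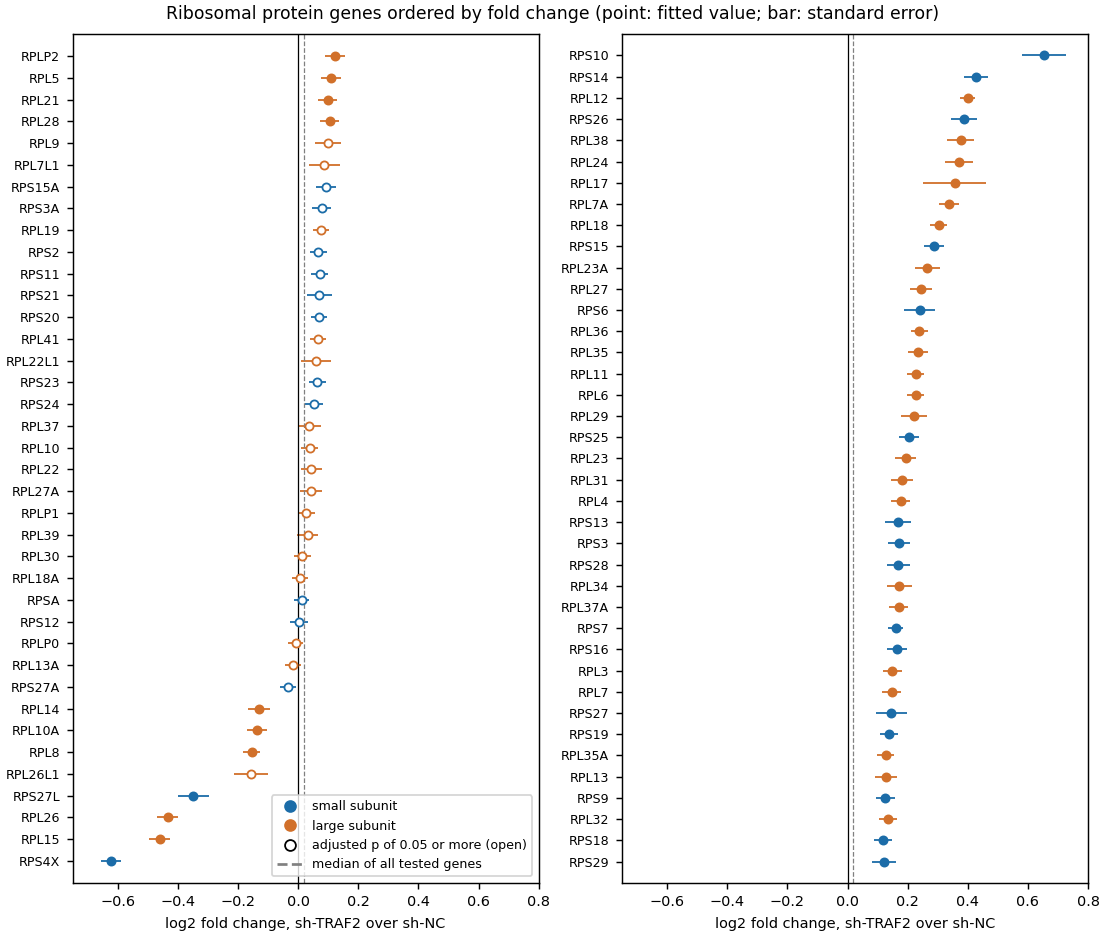
Log2 fold change (sh-TRAF2 over sh-NC) of 77 of the 80 tested ribosomal protein genes, ordered by value over both panels, with bars for the standard error, blue points for the small and orange for the large subunit, open points for adjusted p of 0.05 or more, and a dashed line at the median of all tested genes (0.02). Most points lie between 0 and 0.3, with RPS4X, RPL15, RPL26 and RPS27L apart at the low end and RPS10 at the high end.

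Both subunits shared the pattern. In the small subunit 18 of 32 genes were higher (56.2%) and 2 lower (6.25%). In the large subunit 27 of 48 were higher (56.2%) and 5 lower (10.4%). The shares among all tested genes were 23.7% and 20.9%. Each subunit had a median log2 fold change of 0.12. Summed over all 82 genes, ribosomal proteins took 10.11%, 10.33% and 10.14% of the summed FPKM in the sh-NC samples. In the sh-TRAF2 samples they took 10.87%, 10.79% and 10.7%. The lowest sh-TRAF2 sample thus lay above the highest sh-NC sample, with a difference of means of 0.595 percentage points (exact permutation test, two-sided, p = 0.1, the floor for 3 samples against 3). Counted in recovered reads the share was smaller and went from 3.922% ± 0.0514 to 4.14% ± 0.0336 (SD, n = 3). The small subunit rose from 4.626% to 4.887% of summed FPKM and the large subunit from 5.567% to 5.901%, and neither overlapped between groups. RPS4X, RPL15 and RPL26 went against this, from 0.4041% to 0.2796% of summed FPKM between them. Without these 3 genes the share of the others went from 9.789% to 10.51%.

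**Figure D2:**
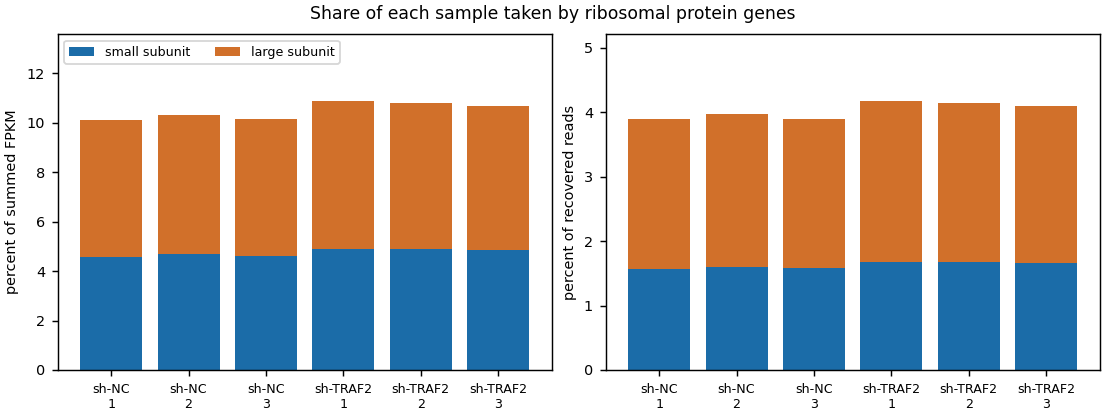
Percent of the summed FPKM (left) and of the recovered reads (right) of each sample that fell on ribosomal protein genes, stacked by small (blue) and large (orange) subunit, for 3 sh-NC and 3 sh-TRAF2 samples. The bars of the sh-TRAF2 samples reach 10.7% to 10.87% on the left, all above the sh-NC samples at 10.11% to 10.33%.

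The genes differed widely in level but little in spread. Mean FPKM, a level per length, had a median of 417.4 over the tested ribosomal protein genes, against 7.67 over all tested genes, and 69 of the genes were above 100. The median coefficient of variation within a group was 2.25% in sh-NC and 1.78% in sh-TRAF2, and the median standard error of a log2 fold change was 0.032, so differences of about 0.1 could be called. Levels between genes compare loosely, since the lengths the authors divided by ran from 195 to 7573 bases and include exons of rare transcripts. Over the 80 genes the log2 fold change had a Spearman correlation of -0.14 with the mean FPKM and of -0.22 with that length, given as a description of genes that share the same 6 libraries.

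The transcription starts of the genes that moved most are shown because the TOP element lies there. The windows below run from 5 bases before the annotated start to 20 bases from it, on the strand of the gene, from RefSeq on GRCh38.p14. Capitals mark a run of at least 5 pyrimidines that begins with a C exactly at that start. The first 4 genes fell and the others rose.
RPS4X (chrX:72277229-72277253, minus strand): gccccaatttctacgcgcaccggaa
RPL15 (chr3:23916540-23916564, plus strand): cctgctggaggagcttcacgcagtc
RPL26 (chr17:8383174-8383198, minus strand): tagttCTCTTCCCTTTTgcggccat
RPS27L (chr15:63157458-63157482, minus strand): cgagcgcagatcgcttgcagcttgc
RPS10 (chr6:34426050-34426074, minus strand): tccttCCTTTCCagccccggtaccg
RPS14 (chr5:150449720-150449744, minus strand): ccactCTCTCTTTCCggtgtggagt
RPL12 (chr9:127451387-127451411, minus strand): tccggCCTCTCggctttcggctcgg
RPS26 (chr12:56041913-56041937, plus strand): acctcgattttcttccgccatccgg
RPL38 (chr17:74203673-74203697, plus strand): tcgttCTTTTTCgtccttttccccg
RPL24 (chr3:101686699-101686723, minus strand): tctctCTTTCTTTTCgccatctttt

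A window was found for 66 of the 82 genes, and 43 of these (65.2%) held the run, against 4.04% of the 27305 genes of the RefSeq table. The window of RPL26, which fell, holds the run, and that of RPS26, which rose, does not. A link between the run and the changes was not tested. Among the tested genes with the run 26 of 42 were higher (61.9%) and 2 lower (4.76%). Among those with a window but no run 13 of 23 were higher (56.5%) and 4 lower (17.4%), with the same median log2 fold change of 0.13. Of all tested genes 23.7% were higher and 20.9% lower. The 496 other tested genes whose window holds the run had 105 higher (21.2%) and 108 lower (21.8%), with a median of 0.01. The run was sought on the gene's own strand at the single start that RefSeq gives, and a start annotated a few bases away would hide it.

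RPS4X, a protein of the body of the small subunit encoded on the X chromosome (72272042 to 72277248 of GRCh38), fell most. It was at 620.5, 634.0 and 641.2 FPKM in sh-NC and at 415.5, 394.6 and 422.4 in sh-TRAF2, and so fell by 35.0%. The sh-TRAF2 samples lay far below the sh-NC samples and close together. The log2 fold change was -0.62 (standard error 0.033, limma adjusted p = 6.91e-06). Behind these values stood 32571, 33437 and 35128 reads in sh-NC, so counting error adds little to the spread.

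RPL15 and RPL26 were the large subunit genes that fell most. RPL15 lies on chromosome 3 from 23916545 to 23924631, and RPL26, whose product sits at the exit of the nascent chain and is also known to bind p53 messenger RNA, on chromosome 17 from 8377516 to 8383193. RPL15 was at 128.8, 129.4 and 122.0 FPKM in sh-NC and at 90.6, 93.9 and 91.6 in sh-TRAF2, and so fell by 27.4% (log2 fold change -0.46, standard error 0.036, limma adjusted p = 4.06e-05). RPL26 was at 641.8, 685.8 and 637.0 FPKM in sh-NC and at 491.4, 479.8 and 482.8 in sh-TRAF2, and so fell by 26.0% (log2 fold change -0.43, standard error 0.034, limma adjusted p = 4.47e-05). In both genes the groups were wide apart, and the sh-TRAF2 samples of RPL26 lay within a few percent of each other.

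The other falls were smaller. RPL8, next to the catalytic centre of the large subunit, was at 748.9, 773.9 and 736.6 FPKM in sh-NC and at 683.3, 668.6 and 677.1 in sh-TRAF2 (log2 fold change -0.15, limma adjusted p = 0.00286). RPL10A, the protein of the L1 stalk, went from 543.6, 563.3 and 535.4 FPKM to 482.9, 498.1 and 513.3 (-0.14, limma adjusted p = 0.0113). RPL14 went from 58.5, 55.3 and 57.3 FPKM to 52.6, 52.0 and 51.8 (-0.13, limma adjusted p = 0.0193). None of these 3 overlapped between groups, but for RPL10A and RPL14 the gap between the groups was close to that between neighbouring sh-NC samples. RPL14 lost its call in 5 of the 16 alternative settings and RPL10A in 2.

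**Figure D3:**
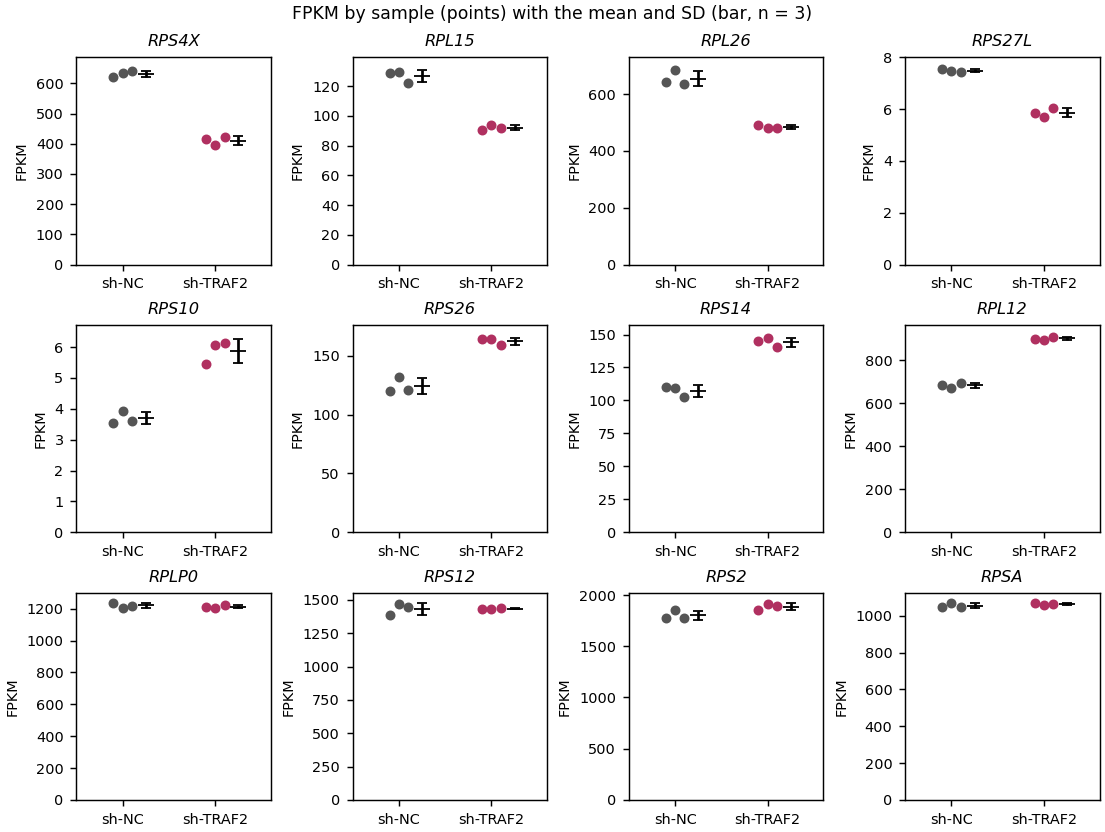
FPKM of 12 ribosomal protein genes in each sample (points), with the mean and SD of each group of 3 (bars), each axis starting at 0. The top row holds the 4 genes that fell most, the middle row 4 genes that rose, and the bottom row 4 of the most abundant genes, whose groups overlap or nearly meet.

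The head of the small subunit, which forms part of the transfer RNA sites, had 11 of 14 genes higher (78.6%, against 23.7% of all tested genes) and 0 lower (against 20.9%). This share of rises was above that of the body and platform and of the groups of the large subunit other than the 5S pair. The median log2 fold change of 0.17 was not particular to the head, being 0.18 around the exit of the nascent chain. These groups were drawn up with the values known, so the share is a description. RPS10, which ZNF598 marks with ubiquitin on collided ribosomes, had the largest rise. It was at 3.54, 3.93 and 3.62 FPKM in sh-NC and at 5.44, 6.08 and 6.12 in sh-TRAF2 (log2 fold change 0.65, standard error 0.073, limma adjusted p = 0.000232).

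RPS10 was, however, the lowest of the tested genes and rests on 104 to 116 reads in sh-NC and 156 to 177 in sh-TRAF2. In GENCODE 29, 39.4% of its exon bases belong also to the same-strand readthrough gene RPS10-NUDT3, which leaves its read count uncertain. RPS18, also of the head and among the 5 most abundant genes, was higher by 0.12 on the log2 scale (limma adjusted p = 0.0108). Other head genes called higher were RPS3, RPS15, RPS16, RPS19, RPS25, RPS28 and RPS29, with log2 fold changes from 0.12 for RPS29 to 0.29 for RPS15. The 3 head genes not called were RPS12 (0.0, limma adjusted p = 0.946), RPS20 (0.07, limma adjusted p = 0.06) and RPS27A (-0.03, limma adjusted p = 0.326). RPS27A is made as a fusion with ubiquitin.

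In the body and platform of the small subunit 7 of 17 genes were higher (41.2%, against 23.7% of all tested genes) and 1, RPS4X, lower (5.88%, against 20.9%), with a median log2 fold change of 0.08. RPS14, a platform protein that is lost on one allele in the 5q- syndrome, was at 109.8, 109.6 and 102.3 FPKM in sh-NC and at 144.9, 147.2 and 140.5 in sh-TRAF2 (0.43, standard error 0.039, limma adjusted p = 8.83e-05). RPS26, beside the exit of the messenger RNA, went from 119.9, 132.0 and 120.8 FPKM to 164.2, 164.2 and 158.9 (0.39, limma adjusted p = 0.000222). Both were well separated between groups. RPS6, the target of the S6 kinases, went from 569.3, 511.8 and 564.1 FPKM to 684.8, 615.3 and 642.2 (0.24, limma adjusted p = 0.00641). Its samples spread more than those of most genes here. The others called higher were RPS7, RPS9, RPS13 and RPS27, between 0.13 and 0.17.

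Several of the most abundant genes hardly moved. RPS2, near the entry of the messenger RNA, had the highest mean at 1844 FPKM and a log2 fold change of 0.07 (limma adjusted p = 0.0892). RPS12 followed at 1433 FPKM (0.0, limma adjusted p = 0.946) and RPLP0 at 1216 FPKM (-0.01, limma adjusted p = 0.809). RPSA, also known as the laminin receptor, averaged 1059 FPKM (0.01, limma adjusted p = 0.716). With standard errors of 0.024 to 0.029, changes of the size seen in RPL12 or RPS4X would have been called in these genes. Quantile normalization altered 2 of them, giving RPLP0 a log2 fold change of -0.18 (limma adjusted p = 0.000208) and RPS2 one of 0.21 (limma adjusted p = 6.34e-05).

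Of the large subunit, the stalk recruits the elongation factors. Its proteins RPLP0 and RPLP1 (0.03, limma adjusted p = 0.46) were not called, and RPLP2 was higher by 0.12 on the log2 scale (limma adjusted p = 0.0164), a call lost in 5 of the 16 alternative settings. RPL12, at the base of the stalk, was at 686.0, 671.9 and 695.2 FPKM in sh-NC and at 901.7, 897.6 and 908.3 in sh-TRAF2, higher by 31.9% (0.40, standard error 0.026, limma adjusted p = 1.72e-05). It was the largest rise in the large subunit, with tight samples in both groups, while RPLP0 next to it in the structure kept 1207 to 1225 FPKM in sh-TRAF2. RPL5 and RPL11, which carry the 5S ribosomal RNA and bind MDM2, were both higher. RPL11 rose by 0.23 on the log2 scale (limma adjusted p = 0.000398). RPL5 rose by 0.11 (limma adjusted p = 0.0241), a call that 6 of the 16 alternatives did not give.

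Around the exit of the nascent chain 4 of 7 genes were higher (57.1%, against 23.7% of all tested genes) and 1, RPL26, lower (14.3%, against 20.9%). RPL17, one of the 4, was at 8.38, 8.37 and 9.19 FPKM in sh-NC and at 11.3, 9.38 and 12.8 in sh-TRAF2 (0.36, standard error 0.1, limma adjusted p = 0.024). Its sh-TRAF2 samples ranged from 360 to 504 reads, the lowest close to the sh-NC samples, and 6 of the 16 alternatives gave no call. RPL17 shares 32.7% of its exon bases with the readthrough gene RPL17-C18orf32 on the same strand. RPL23A, RPL31 and RPL35 were higher by 0.18 to 0.27 on the log2 scale, and RPL19 and RPL39 were not called.

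In the rest of the large subunit 19 of 32 tested genes were higher (59.4%, against 23.7% of all tested genes) and 4 lower (12.5%, against 20.9%). RPL38, known for its part in the translation of Hox messenger RNAs in the mouse embryo, went from 139.3, 148.4 and 136.9 FPKM to 190.1, 186.6 and 174.5 (0.38, limma adjusted p = 0.000318). RPL24, at the bridge between the subunits, went from 445.7, 449.5 and 431.5 FPKM to 612.7, 567.3 and 538.9 (0.37, limma adjusted p = 0.000392). In both the sh-TRAF2 samples were the more scattered group and still clear of sh-NC. RPL7A went from 357.9, 364.6 and 351.3 FPKM to 466.1, 454.5 and 436.6 (0.34, limma adjusted p = 0.000126). RPL18 went from 351.6, 347.3 and 340.4 FPKM to 419.4, 426.5 and 436.1 (0.30, limma adjusted p = 0.000113). Below RPL18 the values ran on without a gap, through RPL27 (0.25), RPL36 (0.24) and RPL6 (0.23) to the genes that were not called.

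Of the 4 tested paralogues 0 were called higher and 1, RPS27L, lower, where 23.7% and 20.9% of all tested genes were. With only 4 genes, these counts cannot be told apart from the shares among all tested genes. RPS27L, a paralogue of RPS27 that p53 induces, was at 7.53, 7.48 and 7.43 FPKM in sh-NC and at 5.86, 5.69 and 6.03 in sh-TRAF2, and so fell by 21.7% (log2 fold change -0.35, standard error 0.051, limma adjusted p = 0.000947). Its core gene RPS27 had the opposite sign at 0.15 (limma adjusted p = 0.0486), the weakest of the calls, which 10 of the 16 alternatives did not give. As a percent of RPS27 by FPKM, RPS27L made up 2.35, 2.06 and 2.17 in sh-NC and 1.49, 1.49 and 1.68 in sh-TRAF2. The log2 ratio differed by -0.5 and the groups did not overlap (exact permutation test, two-sided, p = 0.1, the floor for this design, and 0.2 adjusted over 4 pairs).

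RPL26L1 ran the other way relative to its core gene. It made up 2.5, 2.54 and 2.59 percent of RPL26 in sh-NC and 2.96, 2.99 and 3.29 percent in sh-TRAF2, a difference of 0.28 in the log2 ratio (two-sided exact permutation test, p = 0.1, adjusted 0.2). RPL26 had the larger fall of the pair, since RPL26L1 had a log2 fold change of -0.16 and was not called (limma adjusted p = 0.0516), though 5 of the 16 alternatives did call it. RPL22L1 stayed near RPL22, at 60.5% ± 1.9 of its level in sh-NC and 61.3% ± 4.6 in sh-TRAF2 (SD, n = 3, two-sided exact permutation test, p = 0.9). RPL7L1, a relative of RPL7 that is known from ribosome assembly rather than from the mature ribosome, went from 36.9% ± 2.2 to 35.4% ± 1.1 of RPL7 (SD, n = 3, two-sided exact permutation test, p = 0.5). With 3 samples a group, none of the 4 ratios could reach p under 0.05.

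**Figure D4:**
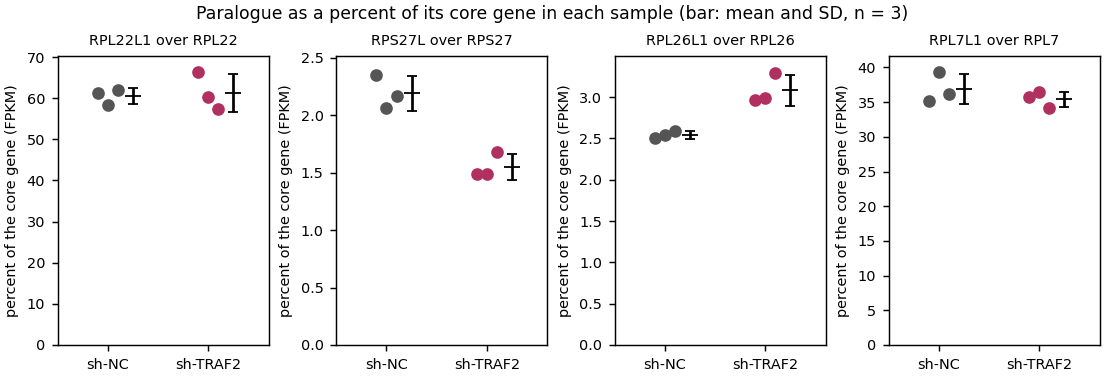
FPKM of 4 paralogues as a percent of the FPKM of their core gene in each sample (points), with the mean and SD of each group of 3 (bars) and axes from 0. RPS27L over RPS27 is lower in all sh-TRAF2 samples (1.49 to 1.68) than in sh-NC (2.06 to 2.35), RPL26L1 over RPL26 is higher, and the other 2 pairs overlap between groups.

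The core genes RPL3 (0.15, limma adjusted p = 0.00542) and RPL7 (0.15, limma adjusted p = 0.00568) were higher on the log2 scale, while RPL10 (0.04, limma adjusted p = 0.29), RPL22 (0.04, limma adjusted p = 0.347) and RPL39 (0.03, limma adjusted p = 0.498) were not called. The filter on low values left out 2 genes. RPL36A had 8, 15 and 6 reads in sh-NC and 6, 4 and 9 in sh-TRAF2, and shares exon bases with the readthrough gene RPL36A-HNRNPH2. RPL39L, a paralogue of RPL39 that is abundant in the testis, had 0, 1 and 1 reads in sh-NC and 0 in each sh-TRAF2 sample. Neither level allows a comparison. The lowest level of any tested gene was 3.54 FPKM in a single sample, so no gene entered the test through one group alone.

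Reads are hard to assign in this family. GENCODE 29 lists 1144 pseudogenes named after 77 of the 82 genes, up to 91 for RPL23A, and 35 genes share exon bases on their own strand with another gene, mostly small nucleolar RNAs. How reads that match several places were treated, and whether strand was used, is not given in the sources used here. RPSAP58, the single ribosomal protein pseudogene found in the table, had a log2 fold change of -0.03 (limma adjusted p = 0.81). Leaving out RPS10, RPL17 and RPL36A, the genes with a readthrough partner, gave 43 higher and 7 lower of 78.

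The heptamer ATTCCAC was sought in the messenger RNAs because it occurs in the target of one of the study's TRAF2 shRNAs and had been singled out in these data before. On the transcript strand, 3 of the 80 ribosomal protein genes matched in GENCODE hold it in the coding sequence or 3′UTR of an annotated transcript, against 19.5% of 10611 tested genes. These genes are RPL15, RPL10A and RPL26L1, which all had log2 fold changes below 0, the last without a call. Fold changes of the other tested genes that hold the heptamer are not given here, so these 3 signs have no baseline. The share of 19.5% was not matched to the ribosomal protein genes for transcript length. A link between the heptamer and the falls was not tested. RPL22, with a log2 fold change of 0.04 and no call, holds it in a 5′UTR. The sites are shown with 5 bases on each side and the heptamer in capitals, with positions of the heptamer on GRCh38 (GENCODE 29).
RPL15, coding sequence (chr3:23919257-23919263): tgaagATTCCACataca
RPL15, 3′UTR (chr3:23920451-23920457): ttaccATTCCACaaagt
RPL10A, coding sequence (chr6:35470226-35470232): agcagATTCCACgaatc
RPL26L1, 3′UTR (chr5:172969721-172969727): tcctaATTCCACatagt
RPL26L1, 3′UTR (chr5:172969755-172969761): aataaATTCCACttact
The other genes called lower, RPS4X, RPL26, RPS27L, RPL8 and RPL14, hold none.

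Genes that work with the ribosome were read from lists of related factors. FAU, made as a fusion with a ubiquitin-like protein, was higher by 16.1% (limma adjusted p = 0.00302). RACK1, a scaffold on the head of the small subunit, was higher by 8.32% (limma adjusted p = 0.00623). RPL36AL overlapped between groups (log2 fold change -0.17, limma adjusted p = 0.125).

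Ribosome biogenesis factors had a larger median shift than the ribosomal proteins themselves, 0.21 on the log2 scale, with 67 of 108 tested genes higher and 8 lower, where 23.7% and 20.9% of all tested genes were. NOL11, of the small subunit processome, was higher by 85.4% (limma adjusted p = 1.23e-05) and FBL, the methyltransferase of box C/D small nucleolar RNPs, by 32.9% (limma adjusted p = 2.26e-05). NCL, the nucleolar protein nucleolin, fell by 39.3% (limma adjusted p = 2.74e-06). Of 54 translation factors 27 were higher and 4 lower, where 23.7% and 20.9% of all tested genes were, with a median of 0.12. EIF2A was higher by 74.6% (limma adjusted p = 1.07e-05) and EIF3M, a subunit of eIF3, by 49.7% (limma adjusted p = 1.02e-05). PABPC1, the cytoplasmic poly(A)-binding protein, whose messenger RNA is itself of the TOP class, was at 396.5, 389.7 and 392.5 FPKM in sh-NC and at 221.2, 206.9 and 218.5 in sh-TRAF2, and so fell by 45.1% (limma adjusted p = 1.92e-06). The fall of PABPC1 was thus larger than that of RPS4X.

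Mitochondrial ribosomal proteins, which form the separate ribosome of that organelle, had 29 of 77 tested genes higher (37.7%, against 23.7% of all tested genes) and 7 lower (9.09%, against 20.9%), with a median log2 fold change of 0.09. MRPL33 was 2.75-fold higher (limma adjusted p = 4.18e-06), MRPL30 higher by 73.8% (limma adjusted p = 3.02e-05) and MRPL49 by 34.9% (limma adjusted p = 0.000114). The lowest value of the list was the fall of MRPS6, by 1.72 on the log2 scale, a gene whose locus overlaps SLC5A3 and whose reads are uncertain. No cytosolic ribosomal protein gene that was tested reached the size of these changes in MRPL33, MRPL30 or MRPS6. Of 16 genes that host small nucleolar RNAs 6 were higher (37.5%) and 1 lower (6.25%, median 0.09), with SNHG7 higher by 72.1% (limma adjusted p = 4.62e-05), SNHG15 by 31.1% (limma adjusted p = 5.8e-05) and SNHG1 by 14.8% (limma adjusted p = 0.000958). Of 19 ribosome quality control genes 7 were higher (36.8%) and 3 lower (15.8%), not far from the 23.7% and 20.9% of all tested genes, with a median of 0.1. MAP3K20, the kinase ZAK that senses stalled ribosomes, fell by 28.6% (limma adjusted p = 0.000371), and OTUD3 and ASCC2 were higher by 26.9% and 22.1% (limma adjusted p = 0.00272 and 0.00282).

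Known regulators of ribosomal protein genes, in transcription and in mTOR signaling, had 1 of 26 genes higher (3.85%, against 23.7% of all tested genes), 12 lower (46.2%, against 20.9%) and 13 not called, with a median log2 fold change of -0.14. MTOR, the one gene higher, went up by 56.9% (limma adjusted p = 6.16e-05). MXD1, a partner of MAX that opposes MYC, fell by 53.6% (limma adjusted p = 3.96e-05), and EIF4EBP2, which binds the cap-binding protein eIF4E and is released by mTOR activity, fell by 36.4% (limma adjusted p = 6.26e-05). EIF4A1 and MYCN, of these lists, were not analysed here.

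**Figure D5:**
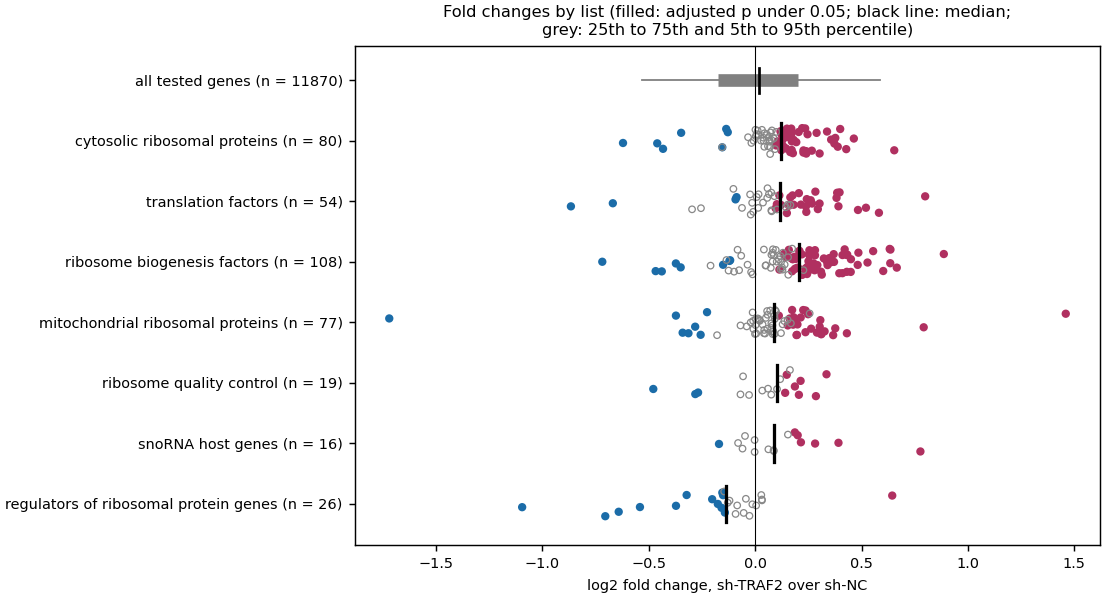
Log2 fold change (sh-TRAF2 over sh-NC) of each tested gene in the ribosomal protein list and 6 related lists, with filled points for adjusted p under 0.05 (red higher, blue lower), black lines for medians, and grey bars for the 25th to 75th and 5th to 95th percentile of all 11870 tested genes. Medians run from -0.14 for the regulators to 0.21 for the biogenesis factors, with 0.12 for the cytosolic ribosomal proteins.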

How the data were processed

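RNA of 3 sh-NC and 3 sh-TRAF2 samples of U251 cells was sequenced by OE Biotech, from libraries made with the VAHTS Universal V6 kit. The authors deposited FPKM per gene and sample in a single table. The submitters' processing notes name HISAT2, HTSeq, R 3.2.0 and DESeq2. The genome build and annotation are not given in the sources used here. Groups were taken from the sample labels.

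Whole reads were recovered from the deposited FPKM, since a gene moves in steps of 1 read, with gene lengths within 0.02 bases of a whole number for all 13360 genes with at least 100 reads. For 3 ribosomal protein genes (RPL18, RPS24, RPSA) the smallest solution was multiplied by 2 to reach a whole length. Recovered reads numbered 34177502 to 37016575 per sample, and in simulated data 99.1% of 13360 genes came out exactly. The standard errors and SDs given here measure the spread between samples, not counting error alone.

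Values were taken as log2(FPKM + 0.1) for 11870 genes (mean FPKM of 0.5 or more) and compared with limma 3.58.1 in R 4.3.3 (lmFit, eBayes with trend, two-sided, Benjamini-Hochberg). Genes were called at an adjusted p under 0.05. On simulated data for the 11870 genes the fit called 84.6% of changes of 0.5 on the log2 scale and all of 1 and 2. There 200 genes were changed and every gene was given the same spread. In the real data 44.6% of genes passed, so these rates need not hold for them. Shares and ratios were compared by exact permutation over the 20 assignments of samples. Alternatives were other pseudocounts (0.01, 1) and filters (none, mean FPKM of 1 or more), a common total with or without the ribosomal protein genes, quantile normalization, eBayes without trend, limma-voom on recovered reads (mean of at least 10), the replicate number as a block and each sample left out. The genes and lists were chosen with earlier results of these data known, and the structural groups after the values were seen.

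Named are TRAF2, the 10 largest separated rises and the separated falls (up to 10), the 5 highest mean FPKM, paralogues with core genes, the stalk, RPL5, RPL11, RPS6, RPS27A, genes left out by the filter, FAU, RACK1, RPL36AL, and the 3 smallest adjusted p of each related list. Some genes that this rule selects are not reported here. Other genes named were chosen after their values were seen. Sequences are from RefSeq (GRCh38.p14) and GENCODE 29 (GRCh38). Scripts ran in Python 3.11.15 with scipy 1.17.1, pandas 2.3.3, numpy 2.4.6 and, for plots, matplotlib 3.10.9.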

Additional observations from a re-analysis of the deposited data

How the results depend on the processing

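Under 16 alternative settings, 33 of the 52 called ribosomal protein genes were called every time (28 higher, 5 lower) and all 52 kept their sign. Leaving out each sample gave 38 to 47 genes higher, 6 to 7 lower and a median log2 fold change of 0.11 to 0.14. Limma-voom on recovered reads gave 45 higher and 7 lower. Quantile normalization brought the median to 0.07 (all tested genes, -0.0), and eBayes without trend gave 34 higher and 5 lower. The cause was not tested. Of the related lists, translation factors lower numbered 2 in place of 4 without trend or without a filter, and 2 to 5 with samples left out. Biogenesis factors lower numbered 5 to 7 with samples left out and 10 under quantile normalization, in place of 8. Mitochondrial ribosomal proteins higher numbered 19 (without sh-NC replicate 3) to 32 in place of 29. The difference in the log2 ratio of RPL22L1 to RPL22 ran from -0.04 to 0.06 with samples left out, on either side of 0. Near 0 the sign also changed for RPL10 (-0.02), RPL22L1 (-0.0), RPLP1 (-0.05) and RPSAP58 (0.01) under quantile normalization, for RPS12 with a common total (-0.01, or -0.0 without the ribosomal protein genes), and with samples left out for RPS12 (-0.02 to 0.02), RPLP0 (0.0), RPL39 (-0.0) and RPSAP58 (-0.08 to 0.05). Without RPS4X, RPL15, RPL26 and RPS27L, an alternative chosen after seeing the data, 45 genes were higher and 3 lower, and without genes of mean FPKM under 20, likewise chosen, 42 and 6. Whether the replicate numbers pair the samples is not given by the labels. Same-numbered samples deviated with correlations of -0.081, 0.072 and 0.073, which cannot settle this with 3 samples a group. The fit with the number as a block gave 46 higher and 7 lower, with a median of 0.12. Depth did not limit the abundant genes, but RPS10, RPL36A and RPL39L rest on few reads.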
